A study of Mus musculus with 15 samples.

Results

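The expression of 30 genes of myelin and of mature oligodendrocytes was followed in the striatum of mice whose male ancestors had received methamphetamine (METH), a stimulant drug acting on dopamine terminals, or saline. The genes were selected by symbol with earlier results of these data known, so the list was not tested as a whole. All 30 were found among the 45777 features of the deposited tables. They had reads in every library and passed the filter on low counts in both generations. RNA was sequenced from 15 striata of wild type male mice of the outbred ICR stock at 7 weeks of age. Founders were 6 weeks old, were injected subcutaneously for 21 days with METH at 5 mg/kg or with saline at 10 mL/kg, and were then mated with females that had received no drug. The F1 METH mice (n = 3) were sons of METH founders and the F1 saline mice (n = 4) were sons of saline founders. The F2 METH mice (n = 4) and the F2 saline mice (n = 4) were sons of F1 males of each lineage and untreated females. The labels describe injections of the founders alone, and they do not state the founder or litter of an animal. Animal numbers in the sample descriptions recur in part between F1 and F2, and the labels do not say whether they mark a family. The main tests treat all animals as unrelated, so each p-value compares a group difference with the spread between these animals. The labels name a neuronal cell type, whereas the tissue was striatum and the transcripts of oligodendrocytes were abundant in it.

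Oligodendrocytes wrap the axons of the central nervous system in myelin, a stack of membrane rich in cholesterol and galactolipids that insulates the axon and speeds conduction. Their precursors stop dividing, switch on a program led by the transcription factors SOX10 and MYRF, and then make large amounts of a few structural proteins together with the enzymes for myelin lipids. In the striatum, myelinated axons run in bundles of the internal capsule between the spiny projection neurons, and the corpus callosum lies directly above the tissue.

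Total counts per library ran from 32805918 to 38514778 in F1 METH, from 35044343 to 37659436 in F1 saline, from 31563806 to 47199267 in F2 METH and from 34622167 to 50573906 in F2 saline mice. Slc17a7, which loads glutamate into vesicles in excitatory neurons of the cortex, exceeded 100 CPM (counts scaled to a fixed library total) in F1 METH replicate 3, F1 saline replicates 1 and 3, F2 METH replicate 2 and F2 saline replicate 4.

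Compared per transcript length, the 30 genes (the members) covered a wide range of levels. Mbp, whose basic protein holds the cytoplasmic faces of the myelin membrane together, averaged 4164 TPM, a unit scaled to transcript length, over the 15 libraries and made up 48.4% of the members' summed TPM. Mobp, encoding another small basic protein of compact myelin, averaged 1313 TPM (15.4% of the sum), and Cnp, encoding a cyclic nucleotide phosphodiesterase of the cytoplasmic channels of myelin, averaged 479.9 TPM. The order Mbp, Mobp, Cnp and then Mal held in all 15 libraries. Mal, Mag, Trf, Cldn11 and Qdpr followed between 327 and 259.7 TPM, and of these Mag exceeded Trf in 10 libraries and Trf exceeded Cldn11 in 8, so that their order was not fixed. Mog and Apod stood near each other at 117 and 114 TPM, with Mog the higher in 8 of 15 libraries. From Ndrg1 to Nkx6-2 another 17 genes lay between 91.8 and 22.2 TPM. Adamts4 (22.01 TPM), Anln (20.2 TPM) and Klk6 (16.4 TPM) were the lowest. Among the transcription factors the level was 44.5 TPM for Sox10, 34.1 TPM for Myrf and 22.2 TPM for Nkx6-2.

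The members' promoters are shown beside the values, and a link between their motifs and the levels was not tested. RefSeq start sites on build GRCm38.p6 gave 30 windows for 23 of the 30 genes, and none was used for Mbp, Fa2h, Trf, Sox10, Myrf, Adamts4 or Ndrg1. The 250 bases before the start site were searched on both strands for ACAANG, a core bound by SOX proteins, and for CTGGNAC. The latter is a loosened form of a core bound by MYRF, with any base at N. Its matches include CTGGAAC, as in Apod, and CTGGGAC, as in Ppp1r14a, and a narrower MYRF core was not searched. Matches to the 2 motifs did not overlap in the windows printed. ACAANG occurred in 17 of the 30 member windows (56.7%) and in 36.3% of all 32851 windows of the table, and CTGGNAC occurred in 10 of 30 (33.3%) and in 16.1% of all windows. Some genes have several windows, and those can overlap, as a pair of the Mag windows do, so that 1 site is counted more than once. Counted by gene, ACAANG occurred in a window of 14 of the 23 genes and CTGGNAC in a window of 8 of 23. CAGCTG, an E-box of OLIG and other basic helix-loop-helix factors, occurred in 2 of 30 windows and in 13.0% of all, and TATAAA in 2 of 30 and in 12.4% of all. These are matches of letters and not measured binding. The 4 windows below, picked after the search, run from many matches to none, and capitals mark ACAANG or CTGGNAC on either strand. The Mobp window holds 6 matches to ACAANG, all on the opposite strand (CTTTGT), Apod holds 1 of each motif, the first of the 3 Mag windows holds 2 of each, and Mal holds none. All are written 5′ to 3′ on the gene's own strand.
Mobp (chr9:120149492-120149741, plus strand): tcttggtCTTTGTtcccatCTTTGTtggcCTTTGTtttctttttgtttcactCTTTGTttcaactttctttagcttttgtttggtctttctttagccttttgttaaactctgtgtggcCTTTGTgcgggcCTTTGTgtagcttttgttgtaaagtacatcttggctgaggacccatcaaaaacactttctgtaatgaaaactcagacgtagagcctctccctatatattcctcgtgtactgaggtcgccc
Apod (chr16:31314809-31315058, minus strand): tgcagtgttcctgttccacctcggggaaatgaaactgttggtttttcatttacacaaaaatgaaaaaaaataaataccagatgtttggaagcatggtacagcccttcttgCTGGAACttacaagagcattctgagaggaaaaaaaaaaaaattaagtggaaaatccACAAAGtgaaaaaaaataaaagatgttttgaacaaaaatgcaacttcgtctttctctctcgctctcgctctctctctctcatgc
Mag (chr7:30914864-30915113, minus strand): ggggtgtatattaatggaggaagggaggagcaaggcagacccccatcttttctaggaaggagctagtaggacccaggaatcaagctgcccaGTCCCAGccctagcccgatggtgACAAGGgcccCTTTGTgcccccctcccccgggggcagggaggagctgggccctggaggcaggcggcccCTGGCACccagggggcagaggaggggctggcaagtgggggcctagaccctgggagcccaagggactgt
Mal (chr2:127656696-127656945, minus strand): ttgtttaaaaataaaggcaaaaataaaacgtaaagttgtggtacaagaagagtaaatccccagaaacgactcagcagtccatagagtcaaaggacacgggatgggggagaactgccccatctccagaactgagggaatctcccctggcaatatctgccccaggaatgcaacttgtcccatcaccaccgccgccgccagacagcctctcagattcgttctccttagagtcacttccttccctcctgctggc

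The first comparison asked whether these genes differed in sons of METH founders. All 30 had a positive log2 fold change in F1 METH over F1 saline striatum, with a median of 0.23 and a range of 0.018 to 0.53. Over all 18499 genes tested, 49.1% were positive and 50.9% negative, with a median of -0.0035. The members' levels varied together between libraries, so their signs are not 30 separate observations. None passed edgeR's quasi-likelihood test at a Benjamini-Hochberg adjusted p under 0.05 (smallest adjusted p of a member 0.994), and 0% of all genes passed it. At an unadjusted p under 0.05 there were 8 of 30, all positive: Adamts4, Mobp, Apod, Trf, Anln, Mal, Mog and Mbp. Over all genes, 2.52% were positive and 1.66% negative at that p. DESeq2 and limma-voom called 0 members as well, at 11 and 3 genes in all. No member had all METH libraries above all saline libraries, which 3.08% of all genes had, and none had all below, which 2.42% had. In bulk tissue, more oligodendrocytes in the sample and more RNA per oligodendrocyte cannot be told apart.

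**Figure D1:**
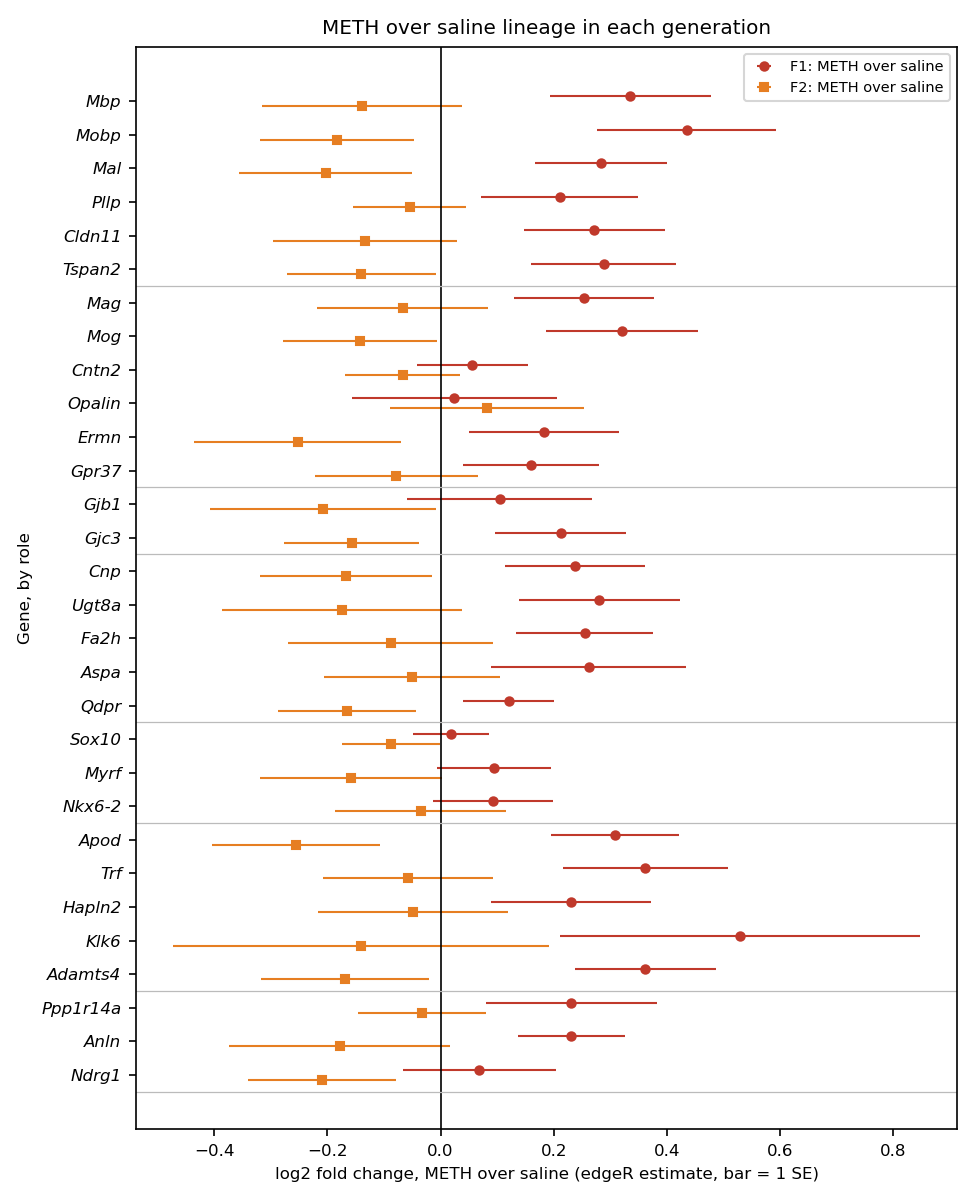
Log2 fold change of METH over saline (x axis, edgeR estimate, bars 1 SE) for each of the 30 genes (y axis, grouped by role), with F1 as circles and F2 as squares. All 30 F1 estimates lie right of 0, from 0.018 to 0.53, and 29 of 30 F2 estimates lie left of 0, down to -0.25.

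Among the 6 genes of compact myelin and its membrane proteins, the F1 median was 0.29 and 3 had an unadjusted p under 0.05. Mbp (gene ID 17196, chromosome 18, 82475091 to 82585637) was at 3360.1, 4353 and 5064 CPM in F1 METH replicates 1 to 3, against 3201, 3308, 3338 and 3658 CPM in F1 saline replicates 1 to 4. METH replicates 2 and 3 stood above all saline libraries, while METH replicate 1 lay within them. Its means were 4259 ± 856 CPM in METH and 3376 ± 197 CPM in saline mice (SD, n = 3 and 4), a log2 fold change of 0.34 (SE 0.14). Mobp (gene ID 17433, chromosome 9, 120149742 to 120181488) was at 1386, 1724 and 1859.5 CPM in F1 METH mice, against 1088, 1077, 1178 and 1558 CPM in F1 saline mice. Saline replicate 4 was higher than METH replicate 1, and the other saline libraries were below all METH libraries. The log2 fold change of Mobp was 0.43 (SE 0.16), with an edgeR p of 0.0228 before and 0.994 after adjustment. The log2 fold change was 0.28 (SE 0.12) for Mal, a proteolipid of myelin rafts, and 0.29 (SE 0.13) for Tspan2, a tetraspanin. Cldn11, the claudin of the tight junctions between myelin layers, had 0.27 (SE 0.12) and Pllp, plasmolipin, 0.21 (SE 0.14).

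The 6 genes of adhesion, the cell surface and the cell edge had an F1 median of 0.17. Mog, encoding an immunoglobulin protein of the outermost myelin layer, was at 73.6, 97.8 and 97.1 CPM in F1 METH mice and 60.2, 67.7, 76.6 and 82.1 CPM in F1 saline mice, a log2 fold change of 0.32 (SE 0.13). Only METH replicate 1 overlapped the saline libraries. Mag, an adhesion protein facing the axon, had 0.25 (SE 0.12), Ermn, which binds actin, 0.18 (SE 0.13), and Gpr37, an orphan receptor that restrains differentiation, 0.16 (SE 0.12). Cntn2, an adhesion protein beside the node of Ranvier that neurons also make, had 0.056 (SE 0.098). Opalin, a sialylated membrane protein of oligodendrocytes, was at 20.7, 34.5 and 25.2 CPM in F1 METH mice, against 23.1, 23.01, 30.1 and 29.3 CPM in F1 saline mice. The METH libraries of Opalin lay on both sides of the saline ones, and its log2 fold change of 0.025 (SE 0.18) turned negative with library totals in place of TMM scaling (-0.00319) and on deposited TPM (-0.0492 on the log2(TPM + 1) scale).

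Among the 2 connexins, Gjb1 (gene ID 14618, chromosome X, 101376376 to 101385629) was at 12.4, 20.6 and 17.5 CPM in F1 METH mice and 14.7, 17.2, 15.5 and 15.3 CPM in F1 saline mice. METH replicate 1 was below and replicates 2 and 3 above every saline library, and the log2 fold change was 0.10 (SE 0.16). Gjc3, another connexin of myelinating glia, had 0.21 (SE 0.12). The 5 genes of lipid synthesis and metabolism had an F1 median of 0.255 with 0 at an unadjusted p under 0.05. Cnp (gene ID 12799, chromosome 11, 100574909 to 100591875) was at 411, 523 and 509 CPM in F1 METH mice, against 348, 396, 421 and 466 CPM in F1 saline mice. Saline replicates 3 and 4 reached the level of METH replicate 1, and the log2 fold change was 0.24 (SE 0.12). Ugt8a, the enzyme that makes galactosylceramide, was at 58.9, 93.8 and 83.6 CPM in F1 METH mice, against 60.9, 69.03, 64.3 and 65.4 CPM in F1 saline mice. METH replicate 1 was below the lowest saline library and the other two were above the highest, with a log2 fold change of 0.28 (SE 0.14). Fa2h, a hydroxylase of myelin fatty acids, had 0.26 (SE 0.12), Aspa, which frees acetate from N-acetylaspartate, 0.26 (SE 0.17), and Qdpr, which regenerates tetrahydrobiopterin, 0.12 (SE 0.080).

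The 3 transcription factors had the smallest F1 median of the roles, at 0.093. Sox10 (gene ID 20665, chromosome 15, 79154913 to 79164490) encodes a factor of the differentiation program. It was at 43.5, 42.8 and 46.1 CPM in F1 METH mice and at 43.3, 44.5, 43.98 and 42.4 CPM in F1 saline mice. All 7 values lay close together, and the log2 fold change of 0.018 (SE 0.067) turned negative with library totals (-0.0108) and on deposited TPM (-0.0361 on the log2(TPM + 1) scale). Myrf (gene ID 225908, chromosome 19, 10208271 to 10240777), which drives myelin genes at the end of differentiation, was at 61.2, 71.4 and 74.1 CPM in F1 METH mice and at 66.96, 71.9, 61.9 and 57.3 CPM in F1 saline mice. The groups overlapped, with a log2 fold change of 0.095 (SE 0.10). Nkx6-2, a homeobox gene of maturing oligodendrocytes, was at 17.3, 17.5 and 16.4 CPM in F1 METH mice and at 13.9, 17.2, 16.9 and 16.1 CPM in F1 saline mice, a log2 fold change of 0.093 (SE 0.11) between overlapping groups.

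The 5 secreted and matrix proteins had an F1 median of 0.36 and 3 members at an unadjusted p under 0.05. Adamts4 (gene ID 240913, chromosome 1, 171250129 to 171262267), a metalloprotease that cleaves aggrecan-type proteoglycans, was at 48.6, 64.9 and 50.8 CPM in F1 METH mice and 39.7, 41.2, 49.8 and 39.8 CPM in F1 saline mice. Saline replicate 3 stood apart from the other saline libraries and overlapped the lowest METH library. Its log2 fold change of 0.36 (SE 0.13) had the smallest p of the members (unadjusted edgeR p of 0.0185, adjusted p of 0.994). Apod (gene ID 11815, chromosome 16, 31296192 to 31314808), a lipocalin that carries small lipids, was at 92.9, 119.6 and 125 CPM in F1 METH mice, against 89.01, 82.4, 92.7 and 99.5 CPM in F1 saline mice. METH replicates 2 and 3 were above all saline libraries, and METH replicate 1 was below saline replicate 4. The log2 fold change of Apod was 0.31 (SE 0.11). Klk6 (gene ID 19144, chromosome 7, 43824438 to 43832027), a secreted serine protease, was at 7.61, 12.5 and 11.2 CPM in F1 METH mice, against 6.04, 9.09, 3.83 and 9.97 CPM in F1 saline mice. Its saline libraries differed more than 2-fold among themselves, and the log2 fold change of 0.53 (SE 0.32), the largest of the members, carried the largest SE. Trf, transferrin, had 0.36 (SE 0.15) and Hapln2, a link protein of the matrix at nodes, 0.23 (SE 0.14). Of the 3 intracellular regulators, Anln, an actin-binding protein of the myelin cytoskeleton, had 0.23 (SE 0.095) and Ppp1r14a, an inhibitor of myosin phosphatase, 0.23 (SE 0.15). Ndrg1, a stress-responsive protein of myelinating cells, was at 90.00, 100.1 and 119 CPM in F1 METH mice and at 100.3, 114, 99.9 and 79.1 CPM in F1 saline mice. These groups overlapped widely, with a log2 fold change of 0.069 (SE 0.13).

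**Figure D2:**
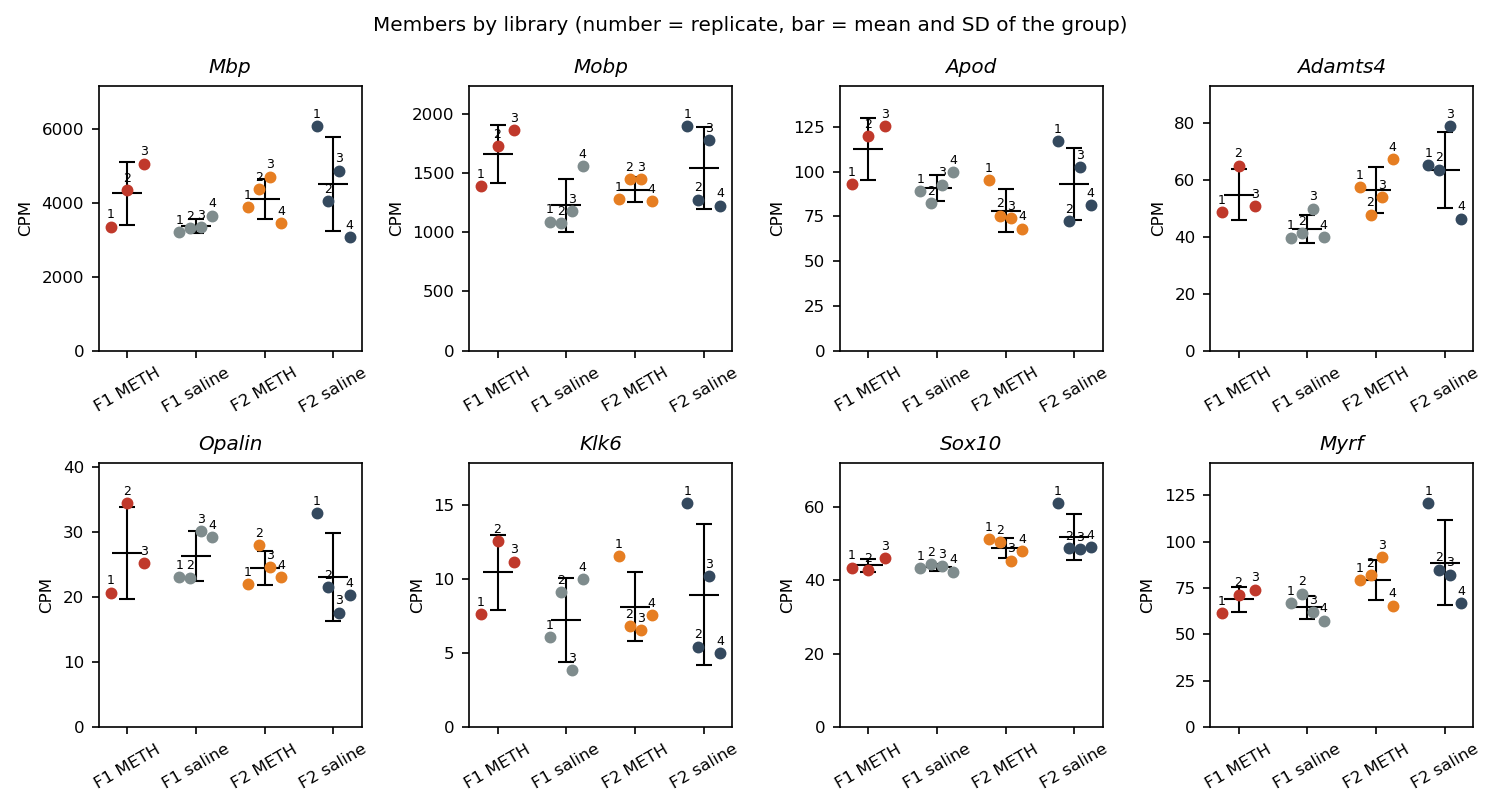
Level in CPM (y axis, from 0) of 8 of the genes in each library of the 4 groups (x axis), with replicate numbers, and the group mean and SD as bars. For Mbp and Mobp, F1 METH replicates 2 and 3 lie above all 4 F1 saline libraries, and F2 saline replicate 1 is the highest F2 library for Mbp, Mobp, Apod, Opalin, Klk6, Sox10 and Myrf.

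The F1 METH libraries differed from each other in the same way for most members. Summed over the 30 genes, the level was 7409.6, 9534 and 10297 CPM in F1 METH replicates 1 to 3, against 6757, 7142, 7264 and 8047 CPM in F1 saline replicates 1 to 4. As a share of all counts this was 0.899 ± 0.155% in METH and 0.737 ± 0.0579% in saline mice (SD, n = 3 and 4). METH replicate 2 was above every saline library for 26 genes and METH replicate 3 for 25, whereas METH replicate 1 lay within the saline range for 25 and was the lowest METH library for 28. Without METH replicate 2 the median log2 fold change was 0.14, with 28 of 30 positive and 0 at an unadjusted p under 0.05. Without METH replicate 3 it was 0.21, with 27 positive and 1 at that p, and without METH replicate 1 it was 0.35, with 30 positive and 18 at that p. The count at that p was 0 without saline replicate 1, 3 without saline replicate 2 and 4 without saline replicate 3, while 29 to 30 genes stayed positive. Without the 3 F1 libraries with Slc17a7 above 100 CPM, 28 of 30 were positive, the median was 0.13 and 1 member had an unadjusted p under 0.05. For these fits, and for single libraries against the other group, the shares over all genes were not counted.

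**Figure D3:**
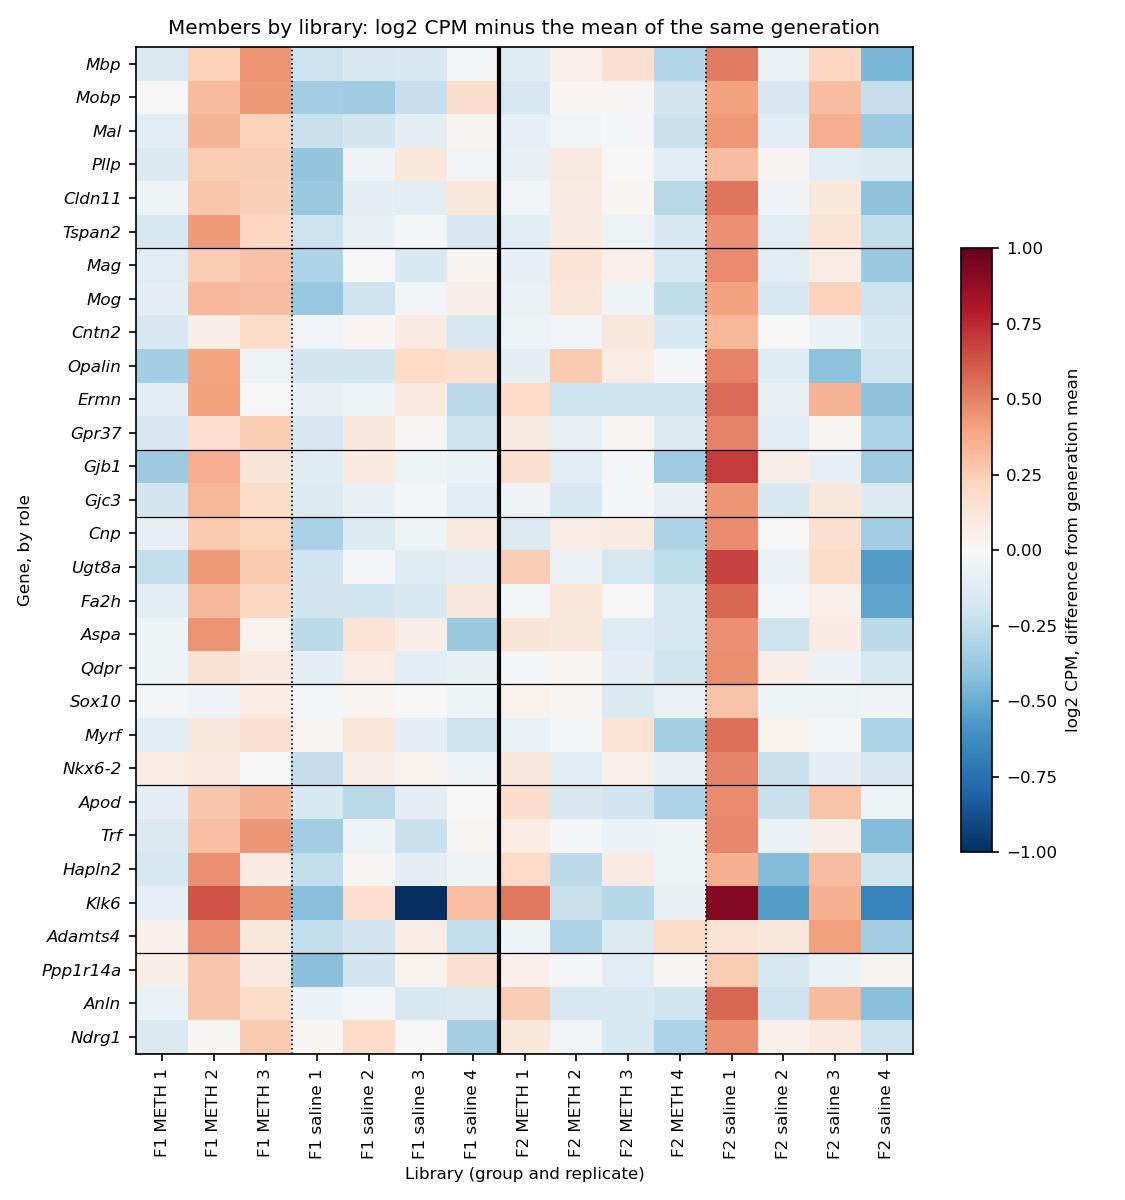
Log2 CPM of each gene (rows, grouped by role) in each library (columns) minus the gene's mean over the libraries of its generation, in red where higher and blue where lower (scale from -1 to 1). F1 METH replicates 2 and 3 are red in most rows and F1 METH replicate 1 is not, and the column of F2 saline replicate 1 is red in 30 rows.

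The second comparison asked whether grandsons of METH founders differed. The signs were the opposite of those in sons: 29 of 30 members had a negative log2 fold change in F2 METH over F2 saline striatum, with a median of -0.14 and a range of -0.25 to 0.082, against 50.5% negative, 49.5% positive and a median of -0.0020 over all 18093 genes tested. None passed edgeR's test (smallest adjusted p of a member 0.96, 0% of all genes called), and 0 had an unadjusted p under 0.05, where 2.66% of all genes were negative and 2.11% positive. DESeq2 and limma-voom called 0 members, at 7 genes and 1 gene in all. In no member did the METH libraries all lie below the saline libraries, as they did for 1.19% of all genes, or all above, as for 1.35%.

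Without F2 saline replicate 1 the direction was lost: 19 of 30 members then had a positive log2 fold change and the median was 0.039, with 1 member at an unadjusted p under 0.05. That library was the highest saline library for 29 members, all but Adamts4, and stood above all 4 F2 METH libraries for 29. F2 saline replicate 4 was the lowest saline library for 23 and stood below all METH libraries for 21. Without it the median was -0.245 with 1 positive gene and 6 genes at an unadjusted p under 0.05. Without F2 METH replicate 4 the median was -0.083, with 1 positive gene. Summed over the 30 genes, the level was 8349, 9061, 9359 and 7528 CPM in F2 METH replicates 1 to 4, against 12409, 8417, 10182 and 6894 CPM in F2 saline replicates 1 to 4. The METH libraries lay inside the range of the saline libraries, at 0.858 ± 0.0796% of all counts in METH and 0.944 ± 0.226% in saline mice (SD, n = 4 each). Without the 2 F2 libraries with Slc17a7 above 100 CPM, 0 members were positive, the median was -0.28 and 5 had an unadjusted p under 0.05. Shares over all genes were not counted here either, for the fits or for single libraries.

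Apod had the smallest p of the members in F2, at 95.2, 75.4, 73.9 and 68.2 CPM in F2 METH mice, against 117, 72.4, 102 and 81.3 CPM in F2 saline mice. Saline replicates 1 and 3 were above all METH libraries and saline replicates 2 and 4 were within them. Its log2 fold change was -0.25 (SE 0.15) (unadjusted edgeR p of 0.115, adjusted p of 0.961). Ndrg1 was at 114, 104, 95.2 and 85.4 CPM in F2 METH mice, against 146, 109.6, 113 and 91.7 CPM in F2 saline mice, a log2 fold change of -0.21 (SE 0.13). The METH libraries overlapped saline replicates 2, 3 and 4. Ermn was at 82.8, 62.4, 62.4 and 62.8 CPM in F2 METH mice, against 107, 68.8, 91.5 and 54.8 CPM in F2 saline mice. METH replicate 1 stood apart from the other METH libraries, which agreed closely, and the log2 fold change was -0.25 (SE 0.18).

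The most abundant members had similar signs and wide saline groups. Mbp was at 3884, 4370.0, 4714 and 3459 CPM in F2 METH mice, against 6073, 4048, 4876 and 3081 CPM in F2 saline mice, a log2 fold change of -0.14 (SE 0.18). Its saline libraries held both the highest and the lowest F2 value. Mobp was at 1276, 1448, 1445 and 1259 CPM in F2 METH mice, against 1892, 1275, 1775 and 1221 CPM in F2 saline mice, a log2 fold change of -0.18 (SE 0.14). Saline replicates 1 and 3 were above, and saline replicates 2 and 4 near, the METH libraries. Cnp was at 433, 501, 502 and 384 CPM in F2 METH mice, against 662, 477, 530.5 and 374 CPM in F2 saline mice, a log2 fold change of -0.17 (SE 0.15). The METH libraries again lay inside the saline range.

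Opalin was the only member with a positive log2 fold change in F2, at 22.01, 28.03, 24.6 and 23.04 CPM in F2 METH mice and 32.96, 21.5, 17.6 and 20.3 CPM in F2 saline mice. Its saline replicate 1 was the highest F2 library and its saline replicates 2, 3 and 4 were below all METH libraries, so the log2 fold change of 0.082 (SE 0.17) set 1 high library against 3 low ones. It became -0.0464 without the libraries with Slc17a7 above 100 CPM and -0.0323 without saline replicate 3. Adamts4 was at 57.3, 47.7, 53.8 and 67.2 CPM in F2 METH mice, against 65.1, 63.6, 78.8 and 46.4 CPM in F2 saline mice, a log2 fold change of -0.17 (SE 0.15). Here saline replicate 3, not 1, was highest, and METH replicate 4 was the highest METH library. Klk6 was at 11.5, 6.81, 6.54 and 7.57 CPM in F2 METH mice, against 15.1, 5.43, 10.2 and 4.99 CPM in F2 saline mice. Its saline libraries formed a high pair, replicates 1 and 3, and a low pair, replicates 2 and 4, with a log2 fold change of -0.14 (SE 0.33).

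The lipid enzyme Ugt8a was at 120.2, 97.4, 89.5 and 84.7 CPM in F2 METH mice, against 161, 97.1, 115 and 68.9 CPM in F2 saline mice, a log2 fold change of -0.17 (SE 0.21). Saline replicates 1 and 4 bounded all F2 values. Gjb1 was at 20.4, 16.9, 18.2 and 14.3 CPM in F2 METH mice, against 29.8, 19.2, 17.3 and 14.3 CPM in F2 saline mice, a log2 fold change of -0.21 (SE 0.20). Apart from saline replicate 1, the groups of Gjb1 overlapped throughout. Sox10 was at 51.3, 50.5, 45.4 and 47.96 CPM in F2 METH mice, against 61.2, 48.8, 48.5 and 49.1 CPM in F2 saline mice, a log2 fold change of -0.088 (SE 0.086). Saline replicate 1 was the only library apart from the rest. Myrf was at 79.1, 81.8, 91.5 and 65.5 CPM in F2 METH mice and 121, 84.8, 82.1 and 66.7 CPM in F2 saline mice, a log2 fold change of -0.16 (SE 0.16), and Nkx6-2 was at 17.5, 15.05, 16.7 and 15.3 CPM in F2 METH mice and 22.8, 13.9, 15.2 and 14.4 CPM in F2 saline mice, a log2 fold change of -0.035 (SE 0.15). For both, saline replicate 1 exceeded every METH library and the other saline libraries did not stand above the METH group. The other 16 members ran from -0.20 (SE 0.15) for Mal to -0.033 (SE 0.11) for Ppp1r14a.

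A further test compared the METH effects of both generations, as the interaction of lineage and generation over all 15 libraries, and so shares its libraries with the tests above. The F2 effect minus the F1 effect was negative for 29 of 30 members, with a median of -0.365 (log2), against 50.1% negative, 49.9% positive and a median of -0.00057 over 19308 genes. None passed edgeR's test (smallest adjusted p of a member 0.905), which called 0.00518% of all genes, and DESeq2 and limma-voom called 0 members. At an unadjusted p under 0.05 there were 6 members, all negative, where 3.16% of all genes were negative and 1.72% positive. Mobp differed by -0.63 (SE 0.22), Apod by -0.57 (SE 0.21), Adamts4 by -0.54 (SE 0.22), Mal by -0.50 (SE 0.22), Mog by -0.47 (SE 0.21) and Tspan2 by -0.44 (SE 0.20). Opalin was the exception at 0.048 (SE 0.27). Without F2 saline replicate 1 the median was -0.21, with 2 positive and 3 genes at an unadjusted p under 0.05. The count at that p was 2 without F1 METH replicate 2 and 2 without F2 saline replicate 3. It was 3 without each of F1 METH replicate 3, F1 saline replicates 1 and 2 and F2 METH replicate 4. It was 11 without F1 METH replicate 1 and 17 without F2 saline replicate 4. The shares of all genes at that p were not counted in these fits.

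The spread between libraries of a group was itself the widest in F2 saline mice. The median SD of log2 CPM over the 30 members was 0.23 in F1 METH, 0.15 in F1 saline, 0.15 in F2 METH and 0.34 in F2 saline mice, and F2 saline was the widest group for 28 of 30. The SD was larger in METH than in saline mice for 24 of 30 genes in F1 and for 0 of 30 in F2. Shares over all genes were not counted for these comparisons of SD. Among F2 saline libraries, replicate 1 was the highest for 29 members and replicate 4 the lowest for 23. By edgeR's biological coefficient of variation, the members' median was 0.134 in F1 and 0.156 in F2, against 0.17 and 0.137 over all genes tested. Klk6 was the most variable member in both generations (0.309 in F1 and 0.334 in F2) and Sox10 the least (0.093 in F1 and 0.0992 in F2).

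Most of this spread was shared between the genes. After removing group means, the first principal component held 69.8% of the members' variance and the second 9.19%. Subtracting each library's mean log2 CPM over the 30 members, to which every gene itself contributes, lowered the median within-group SD to 0.13, against 0.24 without the subtraction. The SD became smaller for 28 genes and larger for Sox10 and Ppp1r14a. Mag, Gjc3 and Tspan2 kept the closest to the library mean, with an SD of 0.087, 0.084 and 0.081, and Klk6 (0.44), Adamts4 (0.23) and Opalin (0.21) the least close. Relative to that mean, 0 members separated METH from saline libraries in either generation. The share over all genes was not counted on this scale, and the subtraction also removes any shift that the members have in common. In F1 the relative difference was 0.37 for Klk6 and 0.22 for Mobp at the upper end, and -0.22 for Opalin and -0.20 for Sox10 at the lower end.

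**Figure D4:**
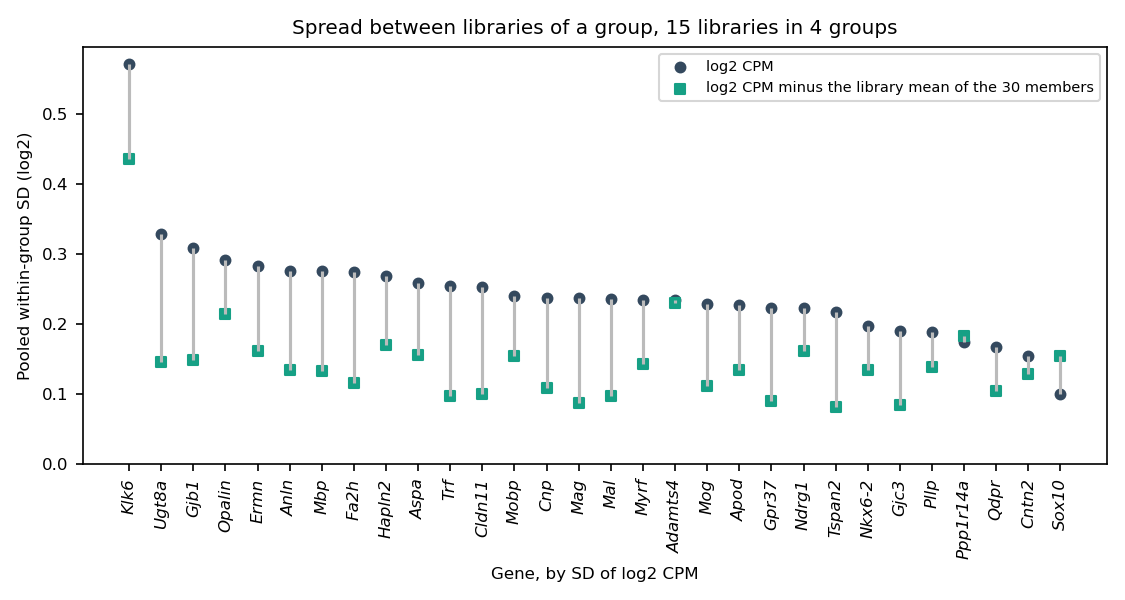
Pooled within-group SD (y axis, log2 scale) of each gene (x axis), as log2 CPM (circles) and after subtracting the library mean of the 30 genes (squares). The squares lie below the circles for 28 of 30 genes, with Klk6 highest at 0.57 and 0.44 and Sox10 lowest before subtraction at 0.099.

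A list of 44 other genes of oligodendrocytes showed the same signs with more exceptions. In F1, 37 of 44 had a positive log2 fold change (median 0.14), 9 of them with an unadjusted p under 0.05. For 7, all METH libraries lay above all saline libraries. Over all genes, 2.52% were positive at that p and 3.08% had all METH libraries above. In F2, 33 of 44 were negative (median -0.092), with 2 at that p and 1 with all METH libraries below. The shares over all genes were 2.66% negative at that p and 1.19% with all METH libraries below. Neither generation had a gene of this list past edgeR's adjusted threshold.

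Bcas1, a gene of myelin-forming oligodendrocytes, was at 241, 258 and 317 CPM in F1 METH mice, against 207, 185, 198 and 192 CPM in F1 saline mice, with no overlap. Its log2 fold change was 0.47 (SE 0.10) in F1 and -0.20 (SE 0.12) in F2, and the difference of -0.68 (SE 0.17) had an edgeR p of 0.00129 and an adjusted p of 0.854. Carns1, the enzyme that makes carnosine, likewise separated the F1 groups, at 26.2, 32.8 and 33.6 CPM in METH and 21.2, 20.05, 18.9 and 25.6 CPM in saline mice (0.53 (SE 0.13)). Tmem88b, a membrane protein gene, had 0.34 (SE 0.11) in F1 between groups that overlapped. Il33, a nuclear cytokine that oligodendrocytes and astrocytes make, was at 20.8, 21.1, 21.6 and 22.8 CPM in F2 METH mice, against 31.1, 23.01, 28.03 and 25.9 CPM in F2 saline mice, with no overlap (-0.33 (SE 0.093)). Its sign was positive in F1 (0.34 (SE 0.11)), and the difference of -0.67 (SE 0.14) had an edgeR p of 2.73e-04 and an adjusted p of 0.854. In F2, Ptgds, a prostaglandin D synthase that meninges also make, had -0.33 (SE 0.11) and Erbb3, a neuregulin receptor, -0.25 (SE 0.13). Olig1 and Olig2, transcription factors of the whole lineage, had 0.037 (SE 0.11) and 0.043 (SE 0.16) in F1 and -0.20 (SE 0.13) and -0.20 (SE 0.18) in F2.

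Genes of oligodendrocyte precursors and premyelinating cells (the precursor list) had smaller differences in F1, with 11 of 18 positive and a median of 0.044. In F2, 14 of 18 were negative with a median of -0.10. At an unadjusted p under 0.05 there were 1 positive gene in F1 and 3 negative genes in F2. Over all genes, 2.52% were positive at that p in F1 and 2.66% negative in F2. All F2 METH libraries lay below all F2 saline libraries for 1 gene of the list, as for 1.19% of all genes. Pdgfra and Cspg4, receptors and surface proteoglycans of precursors, had 0.045 (SE 0.12) and 0.12 (SE 0.12) in F1 and -0.071 (SE 0.10) and 0.032 (SE 0.097) in F2. Genes of the axon at and beside nodes of Ranvier were positive for 4 of 14 in F1 (median -0.046) and for 10 of 14 in F2 (median 0.033). The first 2 of that list, Cntn1 and Cntnap1, had -0.071 (SE 0.094) and 0.34 (SE 0.14) in F1 and -0.0059 (SE 0.066) and 0.029 (SE 0.10) in F2. Peripheral myelin genes summed to 17.5 to 45.3 CPM in F1 METH, 12.8 to 57.6 CPM in F1 saline, 43.7 to 71.8 CPM in F2 METH and 22.2 to 77.8 CPM in F2 saline mice. Most of that sum was Egr2, an activity-regulated factor that neurons also make, at 9.53 to 74.2 CPM over the 15 libraries. Of 5 tested, 0 were positive in F1 and 4 in F2, and Pmp2 had at most 0.276 CPM and was not tested.

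Markers of other glia and of vessels had the members' signs in each generation. In F1, 13 of 15 astrocyte markers were positive (median 0.18), as were 13 of 15 microglial (0.16) and 13 of 15 endothelial markers (0.21). At an unadjusted p under 0.05 there were 2 astrocyte, 0 microglial and 7 endothelial markers, all positive. All METH libraries lay above all saline libraries for 6 endothelial markers and for no astrocyte or microglial marker. Over all genes, 2.52% were positive at that p and 3.08% had all METH libraries above. In F2, 14 of 15 astrocyte markers were negative (median -0.17), as were 15 of 15 microglial (-0.27) and 11 of 15 endothelial markers (-0.089). At an unadjusted p under 0.05 there were 5 astrocyte, 3 microglial and 1 endothelial marker, all negative. All METH libraries lay below all saline libraries for 2 astrocyte markers and for no microglial or endothelial marker. Over all genes, 2.66% were negative at that p and 1.19% had all METH libraries below. Astrocyte markers summed to 5473 to 7583 CPM in F1 METH and 4938 to 5459 CPM in F1 saline mice, and to 5509 to 6128 CPM in F2 METH and 5593 to 7118 CPM in F2 saline mice. Microglial markers summed to 465 to 638 CPM in F1 METH and 439 to 519.7 CPM in F1 saline mice, and to 444 to 516 CPM in F2 METH and 441 to 667 CPM in F2 saline mice. Endothelial markers summed to 530.0 to 603 CPM in F1 METH and 434 to 502 CPM in F1 saline mice, and to 354 to 400.0 CPM in F2 METH and 393 to 445 CPM in F2 saline mice. No marker of these 3 lists was at 0 in any library. F1 METH replicate 3 had the highest F1 sum and F2 saline replicate 1 the highest F2 sum of the precursor, astrocyte, microglial and endothelial lists.

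The water channel gene Aqp4 and the filament gene Gfap of astrocytes had 0.13 (SE 0.17) and -0.027 (SE 0.16) in F1 and -0.19 (SE 0.11) and -0.17 (SE 0.19) in F2. Cx3cr1 and P2ry12, receptors of microglia, had 0.068 (SE 0.15) and 0.20 (SE 0.17) in F1 and -0.15 (SE 0.13) and -0.074 (SE 0.12) in F2. Cldn5 and Pecam1 of endothelium had -0.0078 (SE 0.15) and 0.13 (SE 0.10) in F1 and -0.13 (SE 0.16) and 0.11 (SE 0.12) in F2. None of these genes passed edgeR's adjusted threshold.

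Cortical excitatory markers went the other way in F1, where 1 of 15 was positive (median -0.49), and 8 of 15 were positive in F2 (median 0.0022). They summed to 345 to 1033 CPM in F1 METH and 367 to 1372 CPM in F1 saline mice, and to 329 to 559 CPM in F2 METH and 318 to 642 CPM in F2 saline mice, and Neurod1 had no read in F1 METH replicate 1 and in F2 saline replicate 1. F2 saline replicate 1, highest in the members, had the lowest F2 sum of these markers (317.6 CPM). F2 saline replicate 2 (327.1 CPM) and F2 METH replicate 1 (328.8 CPM) were close to it, with member sums of 8417 and 8349 CPM. F1 METH replicate 3, the highest F1 library in the members, had the highest cortical sum of the F1 METH libraries (1033 CPM). Slc17a7 and Neurod6 had -0.67 (SE 1.25) and -0.62 (SE 1.20) in F1 and 0.14 (SE 0.87) and -0.29 (SE 0.95) in F2. With the mean of the cortical markers as a covariate, 30 members were positive in F1 (median 0.23) and 1 in F2 (median -0.093). Leaving out the libraries with Slc17a7 above 100 CPM changed more. At an unadjusted edgeR p under 0.05 there were then 1 member in F1 and 5 in F2, against 8 and 0 with all libraries. The shares over all genes were not counted in that fit. Spiny projection neuron markers were positive for 14 of 15 in F1 (median 0.12) and 14 of 15 in F2 (median 0.061), with Ppp1r1b at 0.26 (SE 0.19) and 0.041 (SE 0.098) and Drd1 at 0.057 (SE 0.17) and 0.11 (SE 0.098). The 13 mitochondrially encoded protein genes were all positive in F1 (median 0.27). Of these, 7 had an unadjusted p under 0.05, where 2.52% of all genes were positive. All METH libraries lay above all saline libraries for 8 of them, as for 3.08% of all genes. In F2, 10 of the 13 genes were positive (median 0.047). Among them ND1 had 0.26 (SE 0.11) and ND2 0.27 (SE 0.11) in F1, and ND1 0.047 (SE 0.080) and ND2 0.064 (SE 0.10) in F2. The part of these other cells and of the mitochondrial transcripts in the members' values was not tested.

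**Figure D5:**
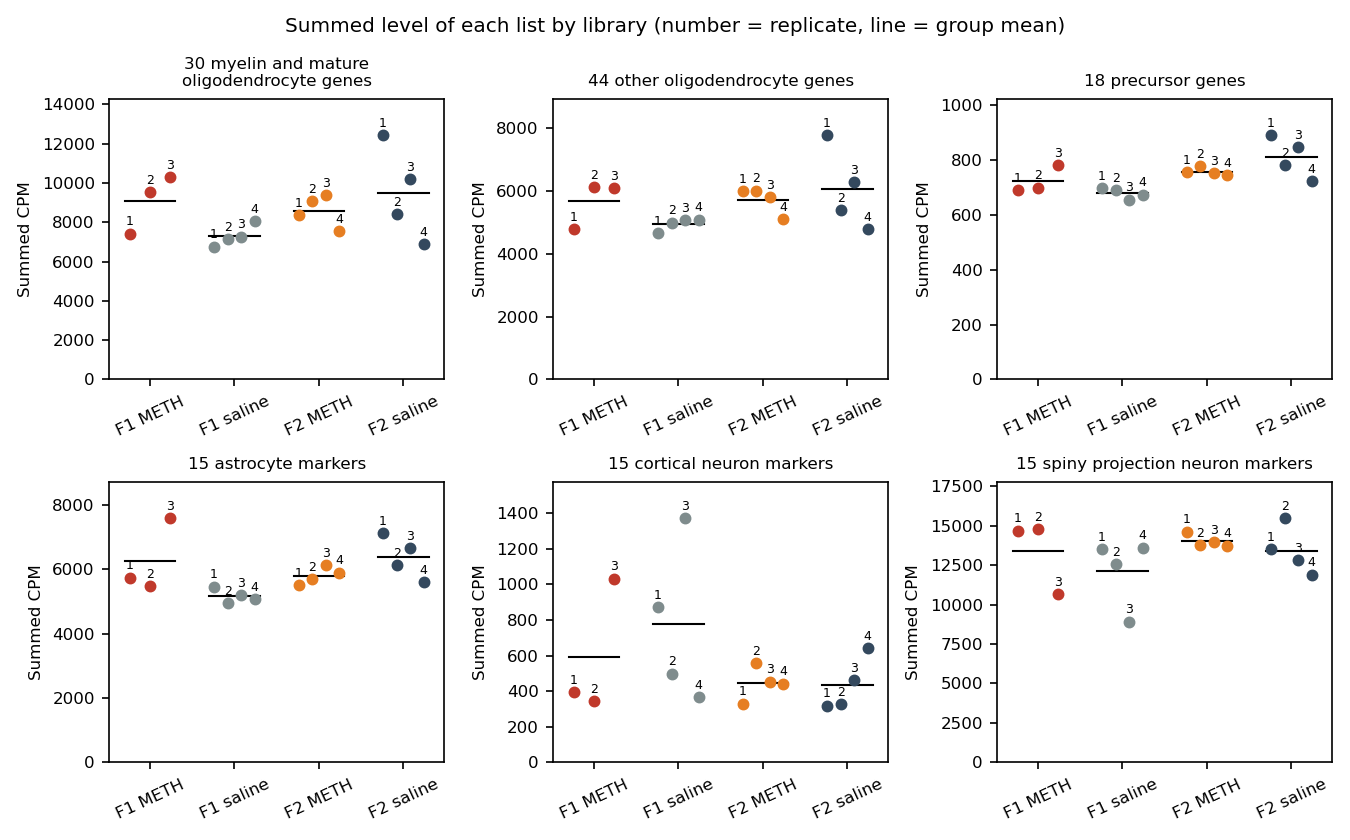
Summed CPM (y axis, from 0) of 6 gene lists in each library (points with replicate numbers, line at the group mean) of the 4 groups (x axis). F2 saline replicate 1 has the highest sum of the 30 members among the 15 libraries (12409 CPM) and is also the highest F2 library for the other oligodendrocyte, precursor and astrocyte lists, while F1 METH replicate 3 leads the F1 libraries in the members (10297 CPM).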

How the data were processed

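The submitters' processing notes name build mm10 and the tools HISAT2 2.1.0, StringTie 2.1.3b, Trimmomatic and bcl2fastq 2.20.0. Neither strandedness nor the counting method is given in the sources used here, so overlapping genes cannot be told apart. Each generation has 1 deposited table of gene counts, TPM and FPKM, per the file headers. FPKM was not used, and the authors' TPM served for levels between genes.

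The deposited counts of all genes were fitted per generation with edgeR 4.0.16 in R 4.3.3 (TMM, filterByExpr with a minimum count of 10, glmQLFTest, Benjamini-Hochberg threshold 0.05), and the interaction over all 15 libraries. CPM uses TMM-scaled totals, and log2 CPM a prior count of 2. The steps were tested on simulated data. Replicates differed beyond sampling noise (chi-square per degree of freedom 15 to 60.4). Alternatives used DESeq2 1.42.0, limma 3.58.1 (voom, and trend on log2(TPM + 1) and log2(TPM + 0.1)), other scalings, no filter, 1 fit of all 15 libraries, a replicate block, a cortical covariate, and fits without libraries. Matplotlib 3.10.9 in Python 3.11.15 drew the figures. Positions and promoters come from RefSeq on GRCm38.p6, the build of mm10.

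Members and gene lists were chosen with earlier results of these data known, so no list was tested. All 30 members were described. Per-library values were given for the 3 smallest p per direction, the 3 highest in TPM, the 3 widest in spread and the transcription factors. From 44 other oligodendrocyte genes, the 3 smallest p per generation, Olig1, Olig2 and Bcas1 were named, and from other lists the first 2 genes; some genes that this rule names are not reported here. Mog in F1 was added after its values were seen.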

Additional observations from a re-analysis of the deposited data

Results flagged for a closer look

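In groups of 4 libraries, 7 of 93 combinations, of a group with a member or with the sum of the 30 members, held a library that stood apart from the rest by Dixon's criterion, which chance meets in about 1 in 20 groups. The number after each gene is the gap to the nearest library as a share of the group's range. In F2 METH mice, replicate 1 stood high for Ermn (0.982, with 82.8 CPM against 62.8 CPM in the next library) and Anln (0.908, with 52.5 against 39.9 CPM). In F1 saline mice, Fa2h stood high in replicate 4 (0.861, with 55.2 against 46.1 CPM), Adamts4 in replicate 3 (0.848, with 49.8 against 41.2 CPM) and Qdpr in replicate 2 (0.831, with 165.7 against 149.6 CPM). In F2 saline mice, replicate 1 stood high for Sox10 (0.955, with 61.2 against 49.1 CPM) and Nkx6-2 (0.855, with 22.8 against 15.2 CPM).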

How the results depend on the processing

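No member passed the adjusted threshold under any alternative run. Counts of called genes over all genes depended on the tool: for F1, F2 and the difference between generations, DESeq2's Wald test gave 11, 7 and 8, limma-voom 3, 1 and 0, and edgeR 0, 0 and 1. In F1, 1 gene was called on TPM with either pseudocount, in 1 fit of all 15 libraries and without libraries with Slc17a7 above 100 CPM. Without those libraries F2 gave 1 and the difference 0. Without F2 saline replicates 2 and 3 together, F2 gave 4 and the difference 0, and the cortical covariate left 0 for the difference.

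F1 members at an unadjusted p under 0.05 numbered 8, against 3 with library totals, 1 on TPM with either pseudocount, 2 in 1 fit of all libraries and 1 without libraries with high Slc17a7. In F2 they numbered 5 without libraries with high Slc17a7. Members with a positive log2 fold change in F2 numbered 1, against 2 on TPM and 0 without libraries with high Slc17a7. For the difference they numbered 0 without those libraries and 0 without F2 saline replicates 2 and 3. Shares of all genes at an unadjusted p under 0.05 were not counted under any alternative.

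Replicate numbers were taken from the sample titles, where they run in order within each group. For most libraries they differ from the animal numbers in the sample descriptions, which were not used for pairing. The values below therefore cannot decide whether METH and saline animals were paired. Same-numbered METH and saline libraries correlated at -0.0345, 0.0595 and 0.401 in F1 and at 0.0386, -0.0617, -0.0575 and -0.00443 in F2. Differently numbered pairs ran from -0.371 to 0.229 in F1 and from -0.0871 to 0.0849 in F2, so the F1 pair at 0.401 was the highest of its generation. With replicate number as a block, 0 genes were called for the difference, 16 members in F1 and 2 in F2 had an unadjusted p under 0.05, and Ndrg1 in F1 became -0.029.

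Some signs turned. In F1, Opalin was -0.00319 and Sox10 -0.0108 with library totals. On log2(TPM + 1) and log2(TPM + 0.1), Opalin was -0.0492 and -0.0517, Sox10 -0.0361 and -0.0369, and Cntn2 -0.00579 and -0.006. Without libraries with high Slc17a7, Sox10 was -0.00824 and Ndrg1 -0.0174. In F2, Hapln2 was 0.00218 and 0.00275 on these TPM scales, Opalin -0.0464 without libraries with high Slc17a7 and -0.126 without saline replicates 2 and 3, and Adamts4 0.0179 without that pair. The difference for Opalin was -0.126 and -0.153 in those fits. The cause was not tested.

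Leaving out each library in turn gave these ranges. For F1, F2 and the difference, called genes ran from 0 to 2, 0 to 1 and 0 to 2. Member medians ran from 0.144 to 0.351, -0.245 to 0.0394 and -0.507 to -0.208. Positive members numbered 27 to 30, 1 to 19 and 0 to 2, and those at an unadjusted p under 0.05 numbered 0 to 18, 0 to 6 and 2 to 17. In F1 the ranges were Cntn2 -0.0249 to 0.144, Gjb1 -0.0636 to 0.282, Ndrg1 -0.0498 to 0.157, Opalin -0.2 to 0.179 and Sox10 -0.0166 to 0.0404. For the difference they were Nkx6-2 -0.208 to 0.0546 and Opalin -0.111 to 0.29. In F2, where the upper end came without saline replicate 1 in each case, they were Anln -0.321 to 0.00997, Aspa -0.141 to 0.117, Cldn11 -0.266 to 0.0504, Cntn2 -0.128 to 0.0435, Fa2h -0.243 to 0.128, Gjb1 -0.341 to 0.0422, Gpr37 -0.182 to 0.102, Hapln2 -0.179 to 0.0698, Klk6 -0.36 to 0.234, Mag -0.184 to 0.107, Mbp -0.284 to 0.0366, Myrf -0.272 to 0.0282, Nkx6-2 -0.111 to 0.158, Opalin -0.0323 to 0.303, Pllp -0.108 to 0.0498, Ppp1r14a -0.0886 to 0.0541, Trf -0.188 to 0.121, Tspan2 -0.235 to 0.00831 and Ugt8a -0.345 to 0.0644.

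The 30 members had reads in every library at this depth, and 3 or 4 animals a group limit what the tests can detect.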
